A study of Mus musculus with 10 samples.

Results

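The genes described here encode the epithelial alarmins IL-33, TSLP and IL-25 and the chains of their receptors: 3 ligand genes (Il33, Tslp and Il25) and 5 receptor genes (Il1rl1, Il1rap, Crlf2, Il7r and Il17rb). They were chosen by name, and all 8 were found among the 54446 genes of the deposited table (26612 of them with at least 1 read in the 10 libraries). The RNA came from whole esophagus of wild-type C57BL/6 mice. In 5 libraries (C1 and D1 to D4) the mice had gone through a model of eosinophilic esophagitis driven by the hapten oxazolone (OXA), and in 5 libraries (A1 to A5) through its vehicle control. The sources used here do not give the dose, route and schedule of OXA, the age and sex of the animals, or the meaning of the letters, which are nested within treatment. The labels do not say that each library came from a different mouse, so p-values measure the spread between libraries. Whole tissue was sequenced, so fewer cells of a type and less RNA per cell cannot be told apart.

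Alarmins are cytokines that barrier epithelium and stroma make and release on injury or contact with allergen. IL-33 is stored in the nucleus, is released from damaged cells, and binds ST2 (the product of Il1rl1) paired with the IL-1 receptor accessory protein (Il1rap), a complex that signals through MyD88 to NF-kB. TSLP binds its own receptor chain (Crlf2) paired with the IL-7 receptor alpha chain (Il7r) and signals through JAK kinases to STAT5, while IL-25 binds IL-17RB (Il17rb) paired with IL-17RA. In barrier tissues these receptors are best known on mast cells, basophils, dendritic cells, group 2 innate lymphoid cells and T cells, and all of these pathways are associated with allergic inflammation.

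In OXA esophagus, 4 of the 8 genes were higher than in vehicle esophagus: the receptor genes Il7r, Il1rl1 and Crlf2 and the ligand gene Il33. The ratios of the group means, OXA over vehicle, were 5.07 for Il7r, 2.78 for Il1rl1, 2.09 for Crlf2 and 1.47 for Il33. None of the 8 was called lower, Tslp and Il1rap did not pass the test, Il17rb was near the counting floor and Il25 had no read in any library. The test was limma on log2(normalised count + 1) over all genes with a mean of at least 5, with Benjamini-Hochberg adjustment over all of them and a threshold of 0.05. It covered 6 of the 8 genes. Across all 14712 genes tested it called 29.9% in either direction, 15.7% higher and 14.2% lower in OXA libraries. The median log2 fold change was 1.01 over the 6 genes and -0.01 over all genes tested. Every OXA library lay above every vehicle library for 3 of the 6 (Il1rl1, Crlf2 and Il7r), against 12% of all genes tested. None of the 6 had every OXA library below every vehicle library, a pattern seen in 10.4% of all genes tested, and 22.4% of all genes tested had groups that did not overlap in either direction.

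The libraries held 3675479 to 8364227 reads in the OXA group and 5094159 to 12108822 reads in the vehicle group. The counting floor was set at 3 reads per library, the limit left by a count of 0, and on average equals a normalised count of 3.50 in OXA libraries and 2.82 in vehicle libraries, for counting error only. Markers of squamous epithelium were abundant in every library, which fits the tissue label: Krt5, a keratin of basal cells, averaged 16346 ± 3990 normalised counts in OXA libraries and 14814 ± 2430 in vehicle libraries (SD, n = 5 each).

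**Figure D1:**
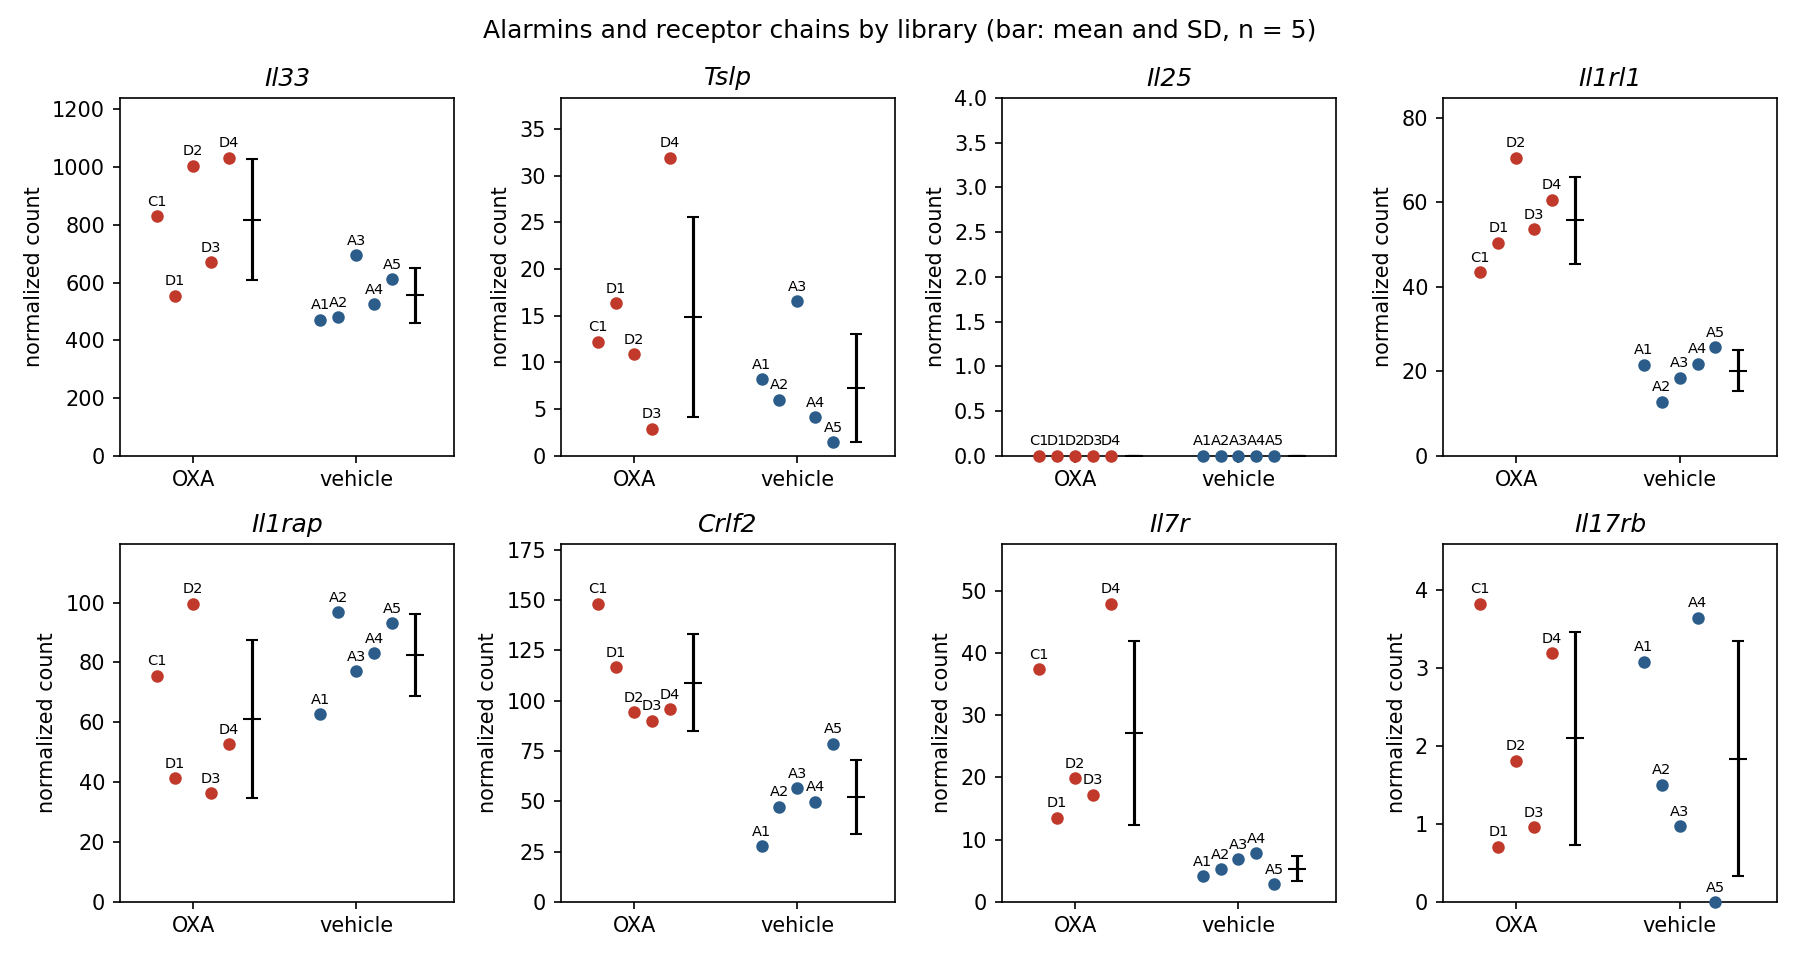
Normalised counts of the 8 alarmin and receptor genes in each of the 5 OXA libraries (left in each panel) and the 5 vehicle libraries (right). Each panel has its own linear axis starting at 0, points are libraries, and lines show the group mean with its SD. The OXA points of Il1rl1, Crlf2 and Il7r all lie above the vehicle points, those of Il33, Tslp, Il1rap and Il17rb overlap them, and Il25 is at 0 throughout.

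Il33 (ENSMUSG00000024810.16, chromosome 19, 29925114 to 29961018, GRCm38) encodes the nuclear alarmin itself. Its normalised counts were 830.5, 553.72, 1004.8, 669.44 and 1032.84 in OXA libraries C1 and D1 to D4, against 470.46, 479.22, 694.73, 524.02 and 610.98 in vehicle libraries A1 to A5. OXA libraries C1, D2 and D4 exceeded every vehicle library, while D1 and D3 lay within the vehicle range, so the groups overlapped. The means were 818 ± 208 in OXA libraries and 556 ± 95.5 in vehicle libraries (SD, n = 5 each). The log2 fold change was 0.53 ± 0.18 (SE; 95% confidence interval 0.14 to 0.93), with a limma adjusted p of 0.0420. In 9 of 23 alternatives Il33 no longer passed. They include leaving out any 1 of 7 libraries: C1, D2 or D4 of the OXA group or A1, A2, A4 or A5 of the vehicle group (limma adjusted p 0.0518 to 0.0979). The log2 fold change remained positive in all 23 alternatives. Skeletal muscle marker sums were 167649 and 131428 in OXA libraries D1 and D3, against 65281, 76799 and 47891 in C1, D2 and D4. In vehicle libraries these sums were 97350 to 121624. Smooth muscle marker sums were 23235 and 20104 in D1 and D3, against 14336, 10133 and 13186 in C1, D2 and D4. In vehicle libraries they were 16368 to 28444. The part of muscle content in the Il33 result was not tested.

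Tslp (ENSMUSG00000024379.3, chromosome 18, 32815383 to 32820099), which encodes the ligand of the Crlf2 and Il7r chains, was counted in few reads. Its read counts were 16, 23, 6, 3 and 20 in OXA libraries C1 and D1 to D4, against 8, 8, 17, 8 and 1 in vehicle libraries A1 to A5. The corresponding normalised counts were 12.21, 16.35, 10.86, 2.87 and 31.93 in the OXA libraries, against 8.22, 6, 16.56, 4.15 and 1.43 in the vehicle libraries. The highest value was in OXA library D4 and the lowest in vehicle library A5, and the groups overlapped. The means were 14.8 ± 10.7 in OXA libraries and 7.27 ± 5.76 in vehicle libraries (SD, n = 5 each). The log2 fold change was 0.92 ± 0.62 (SE), with a limma adjusted p of 0.278. Its 95% confidence interval of -0.40 to 2.24 includes no change and a rise larger than the 1.44 of Il1rl1. The estimate moved with single libraries, to 0.55 without vehicle library A5, 0.58 without OXA library D4 and 1.35 without OXA library D3, and was 0.14 without the 3 shallowest libraries (D2, D4 and A5). Library D3 in the OXA group and A5 in the vehicle group were at or below the floor of 3 reads.

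Il25 (ENSMUSG00000040770.5, chromosome 14, 54932695 to 54936137), which encodes the alarmin of tuft cells in the intestine, had 0 reads in all 10 libraries. The floor of 3 reads a library is the limit that this sets, and no fold change was computed.

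Il1rl1 (ENSMUSG00000026069.15, chromosome 1, 40429570 to 40465715) encodes ST2, the chain that binds IL-33. Its normalised counts were 43.51, 50.47, 70.61, 53.63 and 60.66 in OXA libraries C1 and D1 to D4, against 21.57, 12.75, 18.51, 21.81 and 25.76 in vehicle libraries A1 to A5. The lowest OXA library, C1, stood above the highest vehicle library, A5. The means were 55.8 ± 10.3 in OXA libraries and 20.1 ± 4.84 in vehicle libraries (SD, n = 5 each). Il1rl1 had a log2 fold change of 1.44 ± 0.24 (SE; 95% confidence interval 0.92 to 1.97), with a limma adjusted p of 6.04e-04, and all 23 alternatives kept the call. For Il1rl1, Crlf2 and Il7r alike, permuting all 10 libraries (exact, two-sided) gave p = 0.00794, the smallest that its 252 assignments allow. Any gene whose groups do not overlap gets this value (22.4% of all genes tested), so it only restates the lack of overlap. The same permutation test gave p = 0.0397 for Il33, 0.222 for Tslp and 0.127 for Il1rap.

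Il1rl1 yields a membrane receptor and a soluble form that lacks the membrane anchor and binds IL-33 as a decoy. GENCODE M21 lists 5 protein-coding transcripts of the gene with 5 different 3′ ends, spread over 24008 bases. The transcript from the distal start runs from 40429570 to 40446723, and one from a start near the proximal promoter runs from 40439627 to 40465415. The deposited value is 1 number for the whole gene, so counts from these ends were added together and the forms could not be told apart. The neighbouring gene Il18r1, an IL-18 receptor chain, overlaps the deposited span of Il1rl1 on the same strand and averaged 4.598 normalised counts in OXA libraries and 1.39 in vehicle libraries.

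The starts of Il1rl1 are shown because its RNA can begin at distant promoters, the distal one being known from mast cells and lymphocytes. The sequences are from RefSeq on GRCm38.p6 and run from 250 bases before to 50 bases after the start, 5′ to 3′. Capitals mark GATA on either strand (written TATC where it lies on the opposite strand), the core letters recognised by GATA factors. Distal start, chr1:40429320-40429619, plus strand:
Il1rl1 distal: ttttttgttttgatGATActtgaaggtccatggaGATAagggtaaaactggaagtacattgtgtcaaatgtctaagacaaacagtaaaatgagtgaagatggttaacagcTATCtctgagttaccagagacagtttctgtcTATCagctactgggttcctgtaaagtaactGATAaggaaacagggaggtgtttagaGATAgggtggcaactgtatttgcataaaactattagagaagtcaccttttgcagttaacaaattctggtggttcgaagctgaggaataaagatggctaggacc
Proximal start, chr1:40439379-40439678, plus strand:
Il1rl1 proximal: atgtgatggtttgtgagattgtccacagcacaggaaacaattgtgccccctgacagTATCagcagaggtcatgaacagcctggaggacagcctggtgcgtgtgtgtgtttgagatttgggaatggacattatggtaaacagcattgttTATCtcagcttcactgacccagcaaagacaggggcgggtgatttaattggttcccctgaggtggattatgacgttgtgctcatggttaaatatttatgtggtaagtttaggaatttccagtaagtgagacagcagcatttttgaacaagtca
The distal sequence holds 6 matches and the proximal one 2. Of 32851 RefSeq mouse promoters of the same length, 57.9% hold at least 1 match, the median is 1 match, and 212 (0.645%) hold 6 or more. The distal sequence has a GC content of 38.7% and the proximal one of 44.7%. The promoters behind these shares were not matched for GC content, on which the number of GATA matches depends. A match describes letters, and no binding was measured.

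Il1rap (ENSMUSG00000022514.14, chromosome 16, 26581704 to 26730417) encodes the accessory chain that ST2 shares with the IL-1 and IL-36 receptors. Its normalised counts were 75.57, 41.23, 99.57, 36.39 and 52.68 in OXA libraries C1 and D1 to D4, against 62.66, 96.74, 76.98, 83.1 and 93.01 in vehicle libraries A1 to A5. OXA libraries D1, D3 and D4 lay below every vehicle library, D2 lay above them all, and C1 lay among them. The means were 61.1 ± 26.3 in OXA libraries and 82.5 ± 13.6 in vehicle libraries (SD, n = 5 each). The log2 fold change was -0.51 ± 0.26 (SE; 95% confidence interval -1.08 to 0.06), with a limma adjusted p of 0.161. Without OXA library D2 the log2 fold change was -0.71 with a limma adjusted p of 0.0356.

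Crlf2 (ENSMUSG00000033467.12, chromosome 5, 109554409 to 109558993) encodes the chain specific to TSLP. Its normalised counts were 148.09, 116.57, 94.14, 90.02 and 95.78 in OXA libraries C1 and D1 to D4, against 27.73, 47.25, 56.51, 49.86 and 78.7 in vehicle libraries A1 to A5. Every OXA library was above every vehicle library, with the smallest gap between OXA library D3 and vehicle library A5. The means were 109 ± 24.2 in OXA libraries and 52.0 ± 18.4 in vehicle libraries (SD, n = 5 each). Crlf2 had a log2 fold change of 1.101 ± 0.25 (SE; 95% confidence interval 0.56 to 1.64), with a limma adjusted p of 0.00487, and all 23 alternatives kept the call.

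Il7r (ENSMUSG00000003882.5, chromosome 15, 9505488 to 9530176) encodes the alpha chain that TSLP and IL-7 receptors share. Its normalised counts were 37.4, 13.51, 19.91, 17.24 and 47.89 in OXA libraries C1 and D1 to D4, against 4.11, 5.25, 6.82, 7.79 and 2.86 in vehicle libraries A1 to A5. The lowest OXA library, D1, exceeded the highest vehicle library, A4, and the OXA libraries C1 and D4 stood above the other OXA libraries. The means were 27.2 ± 14.8 in OXA libraries and 5.37 ± 1.99 in vehicle libraries (SD, n = 5 each). Il7r had a log2 fold change of 2.05 ± 0.42 (SE; 95% confidence interval 1.16 to 2.94), with a limma adjusted p of 0.00212. All 22 alternatives that could test it kept the call. The vehicle level rests on 4, 7, 7, 15 and 2 reads in A1 to A5, so A5 was under the floor of 3 reads, whereas the OXA libraries held 49, 19, 11, 18 and 30 reads.

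The RefSeq starts of the TSLP receptor genes are shown because both genes were higher in every OXA library. Capitals mark GATA on either strand and the STAT motif TTCNNNGAA or TTCNNNNGAA, whose letters read the same on either strand. Crlf2, chr5:109558944-109559243, minus strand:
Crlf2: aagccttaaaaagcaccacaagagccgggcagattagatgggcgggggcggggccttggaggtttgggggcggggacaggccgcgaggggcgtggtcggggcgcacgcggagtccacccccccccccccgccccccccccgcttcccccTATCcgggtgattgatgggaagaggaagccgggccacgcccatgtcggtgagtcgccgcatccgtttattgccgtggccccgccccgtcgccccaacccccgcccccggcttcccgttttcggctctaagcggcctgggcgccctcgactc
Il7r, chr15:9529827-9530126, minus strand:
Il7r: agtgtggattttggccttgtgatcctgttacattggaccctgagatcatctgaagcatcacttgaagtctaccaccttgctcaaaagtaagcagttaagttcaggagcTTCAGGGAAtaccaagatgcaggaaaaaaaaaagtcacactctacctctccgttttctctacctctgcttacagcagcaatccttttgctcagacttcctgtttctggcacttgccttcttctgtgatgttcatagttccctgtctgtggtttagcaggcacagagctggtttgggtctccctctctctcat
The Crlf2 sequence, with a GC content of 71.7%, holds 1 GATA match and no STAT match. The Il7r sequence, with a GC content of 45.7%, holds 1 STAT match and no GATA match. The STAT motif occurs in 14.6% of the 32851 promoters. In the starts of the other genes, the upstream Il33 start holds 2 GATA matches and 1 STAT match, the downstream Il33 start 2 GATA matches, the Il17rb start 1 GATA match and the Il1rap start neither motif. Tslp and Il25 were not searched.

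Il17rb (ENSMUSG00000015966.17, chromosome 14, 29995835 to 30008896) encodes the chain that binds IL-25. Its read counts were 5, 1, 1, 1 and 2 in OXA libraries C1 and D1 to D4, against 3, 2, 1, 7 and 0 in vehicle libraries A1 to A5. In 4 of the 5 libraries of each group the count was at or below the floor of 3 reads. The normalised counts averaged 2.098 ± 1.37 in OXA libraries and 1.84 ± 1.503 in vehicle libraries (SD, n = 5 each). The difference in mean log2(normalised count + 1) was 0.21, with p = 0.659 by an exact two-sided permutation test, and its sign turned without vehicle library A5. Its deposited span overlaps Actr8 on the opposite strand, which averaged 119 normalised counts in OXA libraries and 146 in vehicle libraries. The sources used here do not state whether reads were counted by strand.

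**Figure D2:**
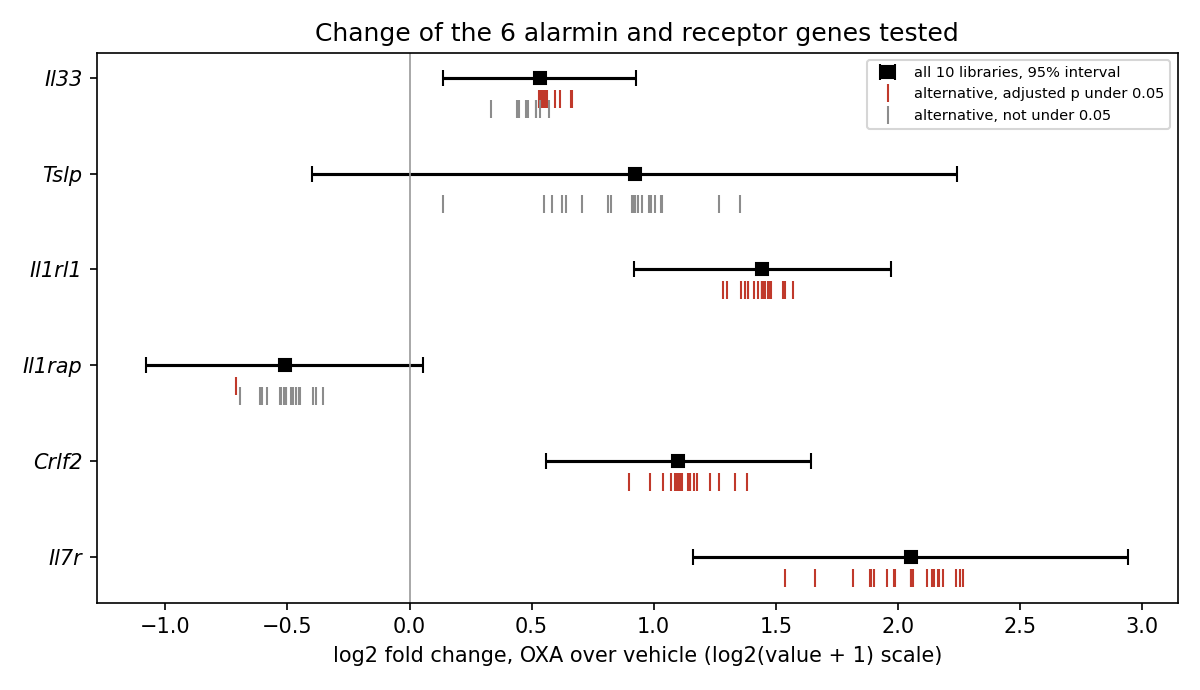
Log2 fold change, OXA over vehicle, of the 6 alarmin and receptor genes tested, on the log2(normalised count + 1) scale. Points and bars show the estimate from all 10 libraries with its 95% confidence interval, and the ticks beneath show the alternatives, red where called and grey where not. All ticks of Il7r, Il1rl1 and Crlf2 are red and above 0. Those of Il33 and Tslp also lie above 0, but some Il33 ticks and all Tslp ticks are grey. The Il33 interval of 0.14 to 0.93 starts close to 0, and the Tslp and Il1rap intervals include 0.

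Ligand and receptor genes were next set against each other within each library, as differences of log2(normalised count + 1), with an exact two-sided permutation test of each and Benjamini-Hochberg adjustment over the 4 differences compared. Il1rl1 minus Il33 was -3.83 ± 0.32 in OXA libraries and -4.74 ± 0.37 in vehicle libraries (SD, n = 5 each), so the receptor gene gained 0.91 on its ligand gene in OXA esophagus (exact permutation adjusted p = 0.0159). Il1rl1 minus its partner chain Il1rap was -0.05 ± 0.56 in OXA libraries and -2.004 ± 0.50 in vehicle libraries, a gain of 1.96 (exact permutation adjusted p = 0.0159). In both of these differences every OXA library lay above every vehicle library.

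Crlf2 minus Il7r was 2.09 ± 0.74 in OXA libraries and 3.04 ± 0.77 in vehicle libraries (SD, n = 5 each), a difference of -0.95 that did not pass (exact permutation adjusted p = 0.0741). Without OXA library D1 it was -1.18 and passed (exact permutation adjusted p = 0.0212), and without D2, D4 and A5 it was -0.28 (exact permutation adjusted p = 0.533). Il33 minus Tslp was 5.96 ± 1.03 in OXA libraries and 6.35 ± 1.04 in vehicle libraries, a difference of -0.39 (exact permutation p = 0.548) whose sign turned without vehicle library A5.

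**Figure D3:**
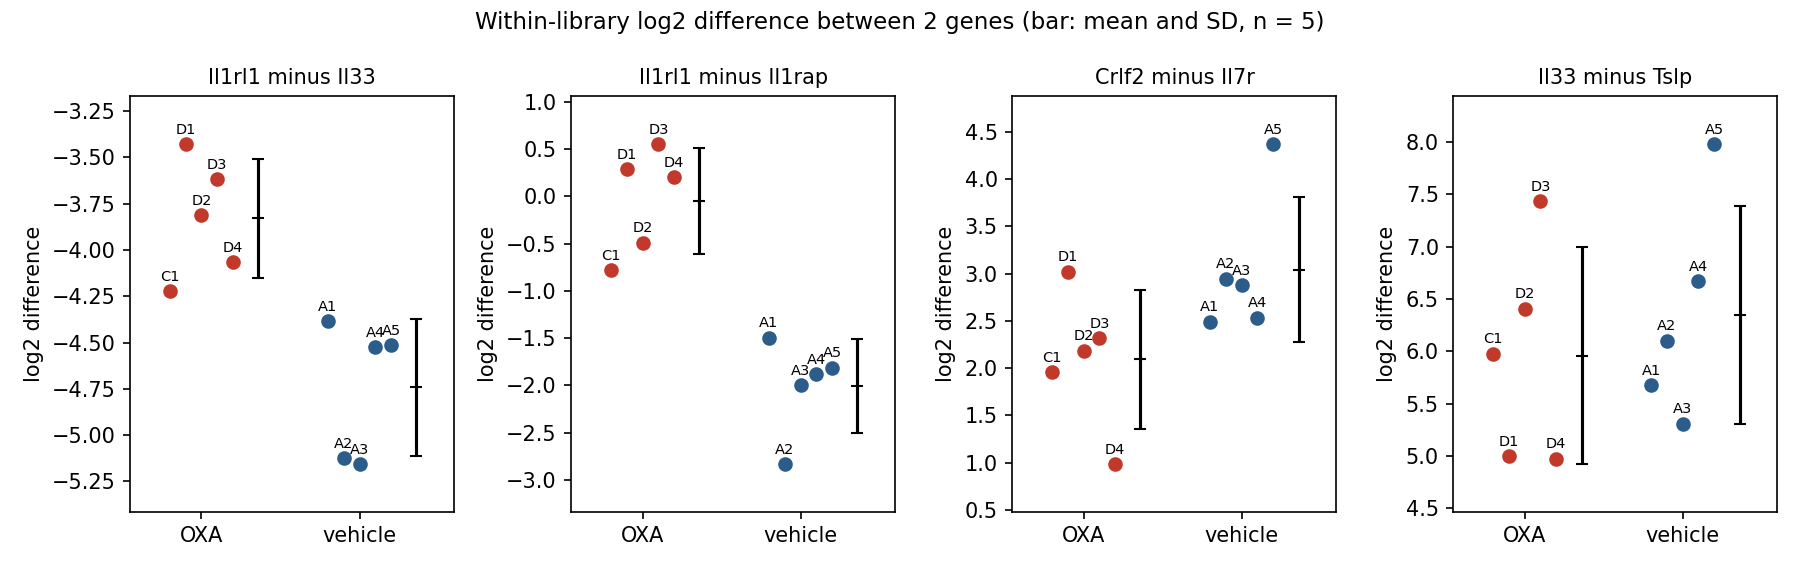
Within-library differences of log2(normalised count + 1) for 4 gene pairs, with OXA libraries left of vehicle libraries in each panel. Points are libraries and lines show the group mean with its SD. For Il1rl1 minus Il33 and Il1rl1 minus Il1rap the OXA points lie above all vehicle points, and for Crlf2 minus Il7r and Il33 minus Tslp the groups overlap.

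Downstream of ST2, 5 of the 16 tested genes of the IL-33 and IL-1 receptor adaptor list were higher in OXA libraries. None was lower, and the median log2 fold change was 0.36. Over all genes tested, 15.7% were higher and 14.2% lower. Nfkb1, a subunit of NF-kB, averaged 460.4 ± 35.5 normalised counts in OXA libraries and 234 ± 24.3 in vehicle libraries (SD, n = 5 each), a log2 fold change of 0.98 ± 0.12 (limma adjusted p = 6.21e-05). Myd88, the adaptor that ST2 recruits, had a log2 fold change of 0.70 ± 0.17 (SE; limma adjusted p = 0.00772). Rela, the NF-kB partner of Nfkb1, had one of 0.65 ± 0.16 (limma adjusted p = 0.00708). Irak3, an inhibitory kinase of the pathway, had one of 0.94 ± 0.28 (limma adjusted p = 0.0198) but lost its call without vehicle library A3 or without OXA library C1. The fifth gene was Ikbkb, a kinase that activates NF-kB, at 0.63 ± 0.20 (limma adjusted p = 0.0268), a call lost without vehicle library A3 or A5 or without OXA library D3 or D4. These genes serve many receptors besides ST2.

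In the TSLP and IL-7 receptor signalling list, 3 of 10 tested genes were higher and 1 was lower (15.7% and 14.2% of all genes tested). The median log2 fold change was 0.28. Il2rg, the gamma chain with which Il7r forms the IL-7 receptor, averaged 218 ± 68.0 normalised counts in OXA libraries and 59.7 ± 25.4 in vehicle libraries (SD, n = 5 each), a log2 fold change of 1.89 ± 0.30 (limma adjusted p = 3.79e-04). Jak3, the kinase bound to that chain, averaged 28.1 ± 8.30 in OXA libraries and 6.14 ± 2.46 in vehicle libraries, a log2 fold change of 2.03 ± 0.35 (limma adjusted p = 6.57e-04). Stat3 had a log2 fold change of 0.93 ± 0.14 (limma adjusted p = 2.84e-04). Stat5b, 1 of the 2 genes for STAT5, was lower at -0.64 ± 0.17 (SE; limma adjusted p = 0.0123), a call lost with scaling to library totals. Stat5a, Jak1 and Jak2 did not pass.

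In the IL-25 receptor list, 1 of 7 tested genes was higher and 2 were lower (15.7% and 14.2% of all genes tested). The median log2 fold change was 0.09. Il17ra, the chain that IL-25 and IL-17A receptors share, averaged 127 ± 16.6 normalised counts in OXA libraries and 76.1 ± 14.1 in vehicle libraries (SD, n = 5 each), a log2 fold change of 0.75 ± 0.17 (limma adjusted p = 0.00529). Traf3ip2, the adaptor Act1 of that receptor family, averaged 33.7 ± 11.7 in OXA libraries and 66.3 ± 3.99 in vehicle libraries, a log2 fold change of -1.03 ± 0.26 (limma adjusted p = 0.00802). Il17rd was also lower, at -0.81 ± 0.25 (SE; limma adjusted p = 0.0267), a call lost without vehicle library A1, A2 or A4 and with scaling to library totals.

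Among 9 effector cytokine genes of cells that respond to alarmins, 1 passed the filter on low values. That gene was Areg, the growth factor amphiregulin, which averaged 40.5 ± 15.7 normalised counts in OXA libraries and 11.6 ± 5.32 in vehicle libraries (SD, n = 5 each), a log2 fold change of 1.75 ± 0.40 (limma adjusted p = 0.00459). Il4 and Il13, which encode the cytokines of type 2 immunity that share the IL-4 receptor alpha chain, each had reads in 3 of 5 OXA libraries and in 0 of 5 vehicle libraries (exact permutation p = 0.167 for each). The OXA group held 5 Il4 reads and 10 Il13 reads in all. Il6, from the same list, had the same pattern, with 9 reads in OXA libraries and 0 in vehicle libraries (exact permutation p = 0.167). Il5, the eosinophil growth factor, had reads in 2 of 5 OXA libraries and in 5 of 5 vehicle libraries, 5 and 18 reads in all (exact permutation p = 0.0556). Single libraries decide on which side of 0.05 the unadjusted values of Il4, Il13 and Il5 fall. For Il4 p was 0.0476 without OXA library D1 or D2, and for Il13 without D2 or D3 (exact permutation tests). The libraries left out there held no read of the gene. For Il4 and Il13, p thus follows from which libraries had reads and carries nothing on the level. For Il5 p was 0.0238 without D3 and 0.0397 without vehicle library A1 (exact permutation tests).

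Among genes for proteases known to cut IL-33, 2 of 6 tested were higher and 1 was lower (15.7% and 14.2% of all genes tested). The calpain gene Capn2 was higher at 0.48 ± 0.13 on the log2 scale (SE; limma adjusted p = 0.0127), and the calpain gene Capn1 was lower at -0.82 ± 0.14 (limma adjusted p = 7.91e-04). Tpsb2, a mast cell tryptase gene, had a log2 fold change of 1.05 ± 0.38 with a limma adjusted p of 0.0492 and lost its call in 12 of 23 alternatives. Of 6 tested danger sensor genes, Tlr3, a sensor of double-stranded RNA, was higher at 1.04 ± 0.26 (limma adjusted p = 0.00761) and P2ry2, a receptor for extracellular ATP, was lower at -0.89 ± 0.18 (limma adjusted p = 0.00204). Of 7 tested transcription factor genes linked to the receptor genes, 2 were higher and 1 was lower. Runx3, a factor of cytotoxic T cells and innate lymphoid cells, averaged 35.8 ± 4.61 normalised counts in OXA libraries and 4.47 ± 3.13 in vehicle libraries (SD, n = 5 each), a log2 fold change of 3.07 ± 0.52 (limma adjusted p = 6.05e-04). Ets1, a lymphocyte factor, was higher at 1.19 ± 0.20 (limma adjusted p = 6.27e-04), and Foxo1, a known activator of Il7r in lymphocytes, was lower at -0.63 ± 0.18 (limma adjusted p = 0.0167), a call lost with scaling to library totals. Gata2 and Gata3 did not pass.

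Most tested markers of T cells, dendritic cells and macrophages were higher in OXA libraries, and their part in the receptor results was not tested. Over all genes tested, 15.7% were higher and 14.2% lower. For T cells, 8 of 10 tested markers were higher, and the summed normalised count of the list ranged from 495 to 553 in OXA libraries and from 126 to 191 in vehicle libraries. Of the markers not called, Cd5 had a lower mean in OXA libraries (31.5, against 46.0 in vehicle libraries). Cd3e had a higher one (14.5, against 4.57 in vehicle libraries). For dendritic cells, 5 of 7 tested markers of 9 listed were higher, with sums of 250 to 347 in OXA libraries and 96.6 to 155 in vehicle libraries. The other 2 listed markers were under the filter and had lower means in OXA libraries: Cd207, the Langerhans cell lectin langerin, had 1 read in all in OXA libraries and 32 in vehicle libraries, and the chemokine gene Ccl17 had 12 in OXA libraries and 34 in vehicle libraries. For macrophages, 5 of 5 were higher, with sums of 1105 to 1943 in OXA libraries and 570 to 880 in vehicle libraries. These 3 sums did not overlap between the groups.

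The lists for other cells known to carry ST2 were as follows, beside 15.7% higher and 14.2% lower over all genes tested. For mast cells, 1 of 6 tested markers of 10 listed was higher (Tpsb2), with sums of 103 to 349 in OXA libraries and 86.7 to 150 in vehicle libraries. For group 2 innate lymphoid cells and Th2 cells, 3 of 7 tested markers of 9 listed were higher (Icos, Klrg1 and Bcl11b). The defining markers Ptgdr2 and Nmur1 were at 0 in every library. The sums overlapped (1977 to 3590 in OXA libraries, 2120 to 2751 in vehicle libraries) and were mostly Arg1 and Rora, which were not called, and Bcl11b. For regulatory T cells, 2 of 3 tested markers of 4 listed were higher, with sums of 280 to 805 in OXA libraries and 225 to 259.7 in vehicle libraries that did not overlap. Most of these sums was Ikzf2, which was not called, overlapped between the groups and averaged 360 in OXA libraries and 227 in vehicle libraries. Foxp3, under the filter, averaged 2.50 normalised counts in OXA libraries and 1.29 in vehicle libraries. None of the 3 basophil markers and none of the 5 eosinophil markers passed the filter. The eosinophil sums were low and did not overlap, at 3.55 to 27.2 in OXA libraries and 0 to 2.6 in vehicle libraries.

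Cell types known as sources of IL-33 were measured in the same way, beside the same 15.7% higher and 14.2% lower over all genes tested. For endothelium, 1 of 5 tested markers was higher (Kdr), with sums of 273 to 650.4 in OXA libraries and 182 to 466 in vehicle libraries. For fibroblasts, 1 of 5 was higher (Col1a2), with sums of 15183 to 24085 in OXA libraries and 16672 to 22674 in vehicle libraries. For basal squamous epithelium, 2 of 6 were higher (Krt14 and Itga6) and 1 was lower (Krt15). The sums overlapped (22087 to 46323 in OXA libraries, 27501 to 38180 in vehicle libraries) but join opposite changes. Krt14 averaged 11260 in OXA libraries and 2357 in vehicle libraries, and Krt15 averaged 3295 and 12538. For differentiated squamous epithelium, 4 of 5 were lower, with sums of 202576 to 536952 in OXA libraries and 627784 to 1070079 in vehicle libraries. Their part in the Il33 result was not tested.

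**Figure D4:**
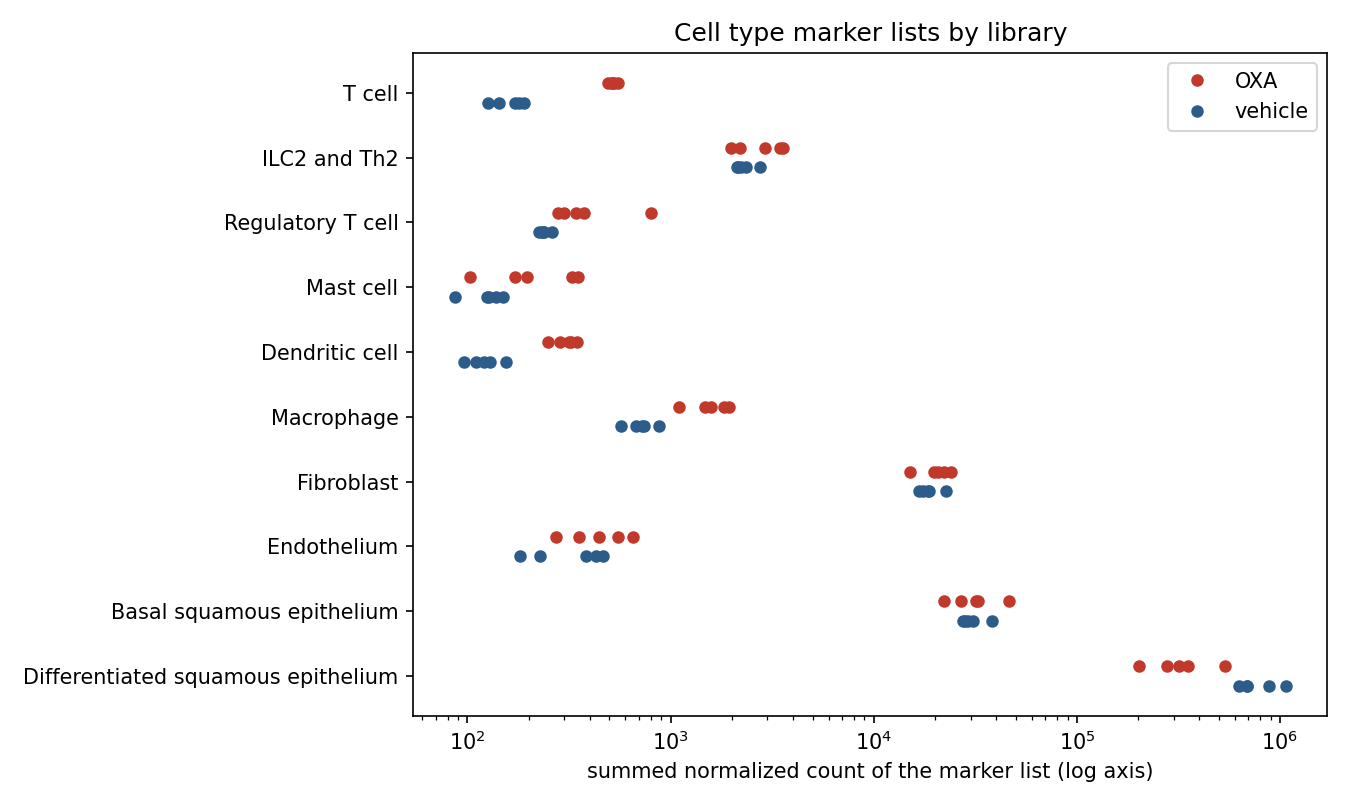
Summed normalised counts of the marker lists on a log axis, with OXA libraries (red) above vehicle libraries (blue) for each list and 1 point a library. The T cell, regulatory T cell, dendritic cell and macrophage sums are higher in OXA libraries without overlap, those of differentiated squamous epithelium are lower without overlap, and the other 5 lists plotted overlap. The regulatory T cell sums are mostly Ikzf2, which was not called.

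Il33, Il1rl1, Il1rap and Crlf2 each had a mean of 20 or more. For these, the 2 genes with the most similar profile were named by the root-mean-square distance between centred log2(normalised count + 1) values over the 10 libraries, among 11428 protein-coding genes. For Il33 these were Sptssa, a subunit of serine palmitoyltransferase (distance 0.0786), and Serp1, a stress-associated protein of the endoplasmic reticulum (0.0993). For Il1rl1 they were Ccdc85c (0.199) and Birc3, an inhibitor of apoptosis (0.217). For Crlf2 they were Plscr1, a phospholipid scramblase (0.222), and Tmem51 (0.284). For Il1rap they were Duoxa1, the maturation factor of a dual oxidase (0.207), and Ap1g2, an adaptor protein of vesicle transport (0.220). All 10 libraries share the treatment contrast, so the distances include it. Sptssa and Serp1 did not pass the test themselves (limma adjusted p 0.0515 and 0.0948), nor did Plscr1 (0.0904) and Ap1g2 (0.117). Ccdc85c, Birc3 and Tmem51 were called higher and Duoxa1 lower (limma adjusted p 0.0372 for Duoxa1). Duoxa1 lost its call in 10 of 23 alternatives, while Ccdc85c, Birc3 and Tmem51 kept theirs in all 23. Of the genes that did not pass, Sptssa was called in 10 of 23 alternatives, Serp1 and Plscr1 in 4 each and Ap1g2 in 3.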

How the data were processed

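RNA of 10 esophagus libraries was measured by CEL-Seq, which reads transcript 3′ ends, per the labels' protocols. The authors deposited a signal for each gene in each library: gene counts divided by a size factor, judging by the values. The build GRCm38 and Bowtie2 2.2.6, cutadapt 1.10, DESeq2 1.18.1, FastQC 0.11.5, HTSeq 0.11.2, TopHat2 2.1.0 and Trim Galore are named, with no role, per the submitters' processing notes. The sources used here do not give the strand setting, multi-mapping rule or use of molecular identifiers, so floors cover counting error only. Whole reads were recovered for 100% of values within 0.006 of a whole number. Of 53229 gene IDs matched to GENCODE M21, 19418 spans ended 300 bases farther 3′ in the deposited table.

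Differences between groups were fitted with limma 3.58.1 (R 4.3.3; trended eBayes, two-sided) on log2(value + 1) for 14712 genes with a mean of at least 5, after tests on simulated data. Fold changes are on that scale, which understates changes of low genes. The alternatives covered pseudocounts, filters, scalings, array weights, each library left out, and edgeR 4.0.16, DESeq2 1.42.0 and limma-voom on the recovered reads. Of the genes tested, edgeR's quasi-likelihood test called 2411 higher and 1972 lower, and DESeq2 called 2627 higher and 2249 lower. The genes, lists, pairs and tests were chosen with earlier results of these data known. Named genes were the 8 alarmin and receptor genes, the 2 most similar protein-coding genes of each with a mean of at least 20, and from each pathway list up to 4 called genes with the smallest p, besides coreceptors, adaptors and effector cytokines. Some genes of the pathway lists are not reported here and were left out of the lists' counts.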

Additional observations from a re-analysis of the deposited data

Results flagged for a closer look

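Of 88 groups of 5 libraries checked, over the genes named and the within-library differences, 4 had 1 library far from the other 4, and chance flags about 1 in 20 groups. The Crlf2 minus Il7r difference on the log2 scale was 4.37 in vehicle library A5, where Il7r had 2 reads, against 2.49 to 2.95 in the other vehicle libraries. Tlr3 had a normalised count of 26.8 in OXA library D3, against 50.5 to 57.5 in the other OXA libraries. Plscr1, the gene most similar to Crlf2, had 61.1 in OXA library C1, against 26.8 to 33.4 in the others. Jak3 had 10.4 in vehicle library A4, against 4.29 to 6 in the other vehicle libraries.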

How the results depend on the processing

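Il1rl1, Crlf2 and Il7r kept their direction and call in every alternative that could test them, and Tslp was called in none of 22, with log2 fold changes of 0.14 to 1.35. For Il33, leaving out 1 library gave log2 fold changes of 0.44 to 0.66. Its call was lost with no filter on low values (0.53, limma adjusted p = 0.0614) and without A5, D2 and D4 together (0.33, limma adjusted p = 0.183). For Il1rap, leaving out 1 library gave -0.71 to -0.35, with a call only without D2. Il17rb turned sign without A5, D2 and D4 (-0.30), and leaving out 1 library gave -0.12 to 0.43. For the within-library differences, leaving out A5, D2 and D4 was added after seeing the data. It gave 1.04 for Il1rl1 minus Il33 and 2.07 for Il1rl1 minus Il1rap, each with an exact permutation adjusted p of 0.0571, -0.28 for Crlf2 minus Il7r and a turned sign, 0.20, for Il33 minus Tslp. For both Il1rl1 differences 0.0571 was the smallest exact permutation adjusted p possible, given the few libraries left and the p-values of the other differences. This setting therefore could not keep their calls. Irak3 and Stat5b lost their calls without A5, D2 and D4 too. Leaving out 1 library gave -0.758 to 0.0189 for Il33 minus Tslp and -1.18 to -0.62 for Crlf2 minus Il7r. The cause of the other changes was not tested. Scaling to the total count of each library moved the median log2 fold change of all genes to 0.12 (-0.01 with the deposited scaling) and called 2915 genes higher and 1545 lower, 65.4% higher, against 2309 and 2085, 52.5% higher, with the deposited scaling. The 4 genes called stayed higher and Il1rap stayed lower under each scaling tried. Tslp, Il7r in vehicle libraries, Il17rb and the cytokine genes rest on few reads. No paired analysis was possible because the groups share no replicate numbers.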
